A study of Mus musculus with 12 samples.

Results

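The step from HE2 to HP was described in cells given doxycycline to induce RUNX1-EVI1. It was read from 4 of the 12 RNA-seq libraries of the series, 2 labelled PlusDox HP and 2 labelled PlusDox HE2. These libraries were picked by their group labels alone, and no measured value entered the choice. HE2 stands for hemogenic endothelial 2 and HP for hematopoietic progenitor, sorted populations for which no gates are stated in the labels. All 12 libraries came from A2lox.cre cells, mouse embryonic stem cells in which Cre recombination places an inducible gene at a fixed site. All carried doxycycline-inducible RUNX1-EVI1, a leukaemia fusion of the blood transcription factor RUNX1 with the zinc finger protein EVI1. Per the labels, individual colonies were expanded after neomycin selection, and how many colonies supplied the libraries is not stated. FLK1-positive cells from embryoid bodies were grown in blast-type culture with VEGF and IL-6. The PlusDox cells received 0.5 µg/ml doxycycline after a day of culture and were grown for a further 18 hours, and the NoDox cells received none. The PlusDox groups used here were HP, HE2 and HE1, and the NoDox groups were HP, HE2 and HE1, each of 2 libraries that the labels call biological replicates. The labels do not say whether these came from separate cultures, so p-values measure only the spread between these libraries, which may be technical.

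Blood cells first form in the embryo from hemogenic endothelium, flat vessel-lining cells that round up, lose their junctions and switch on blood genes. RUNX1 is needed for this transition. In culture, FLK1-positive cells pass through hemogenic endothelium before free progenitors appear, and these progenitors give rise to embryonic red cells, megakaryocytes (the cells that shed platelets) and myeloid cells.

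The values were FPKM, fragment counts divided by transcript length and library depth, and they summed to between 468326 and 579055 per library. Between 11461 and 12174 gene names reached 1 FPKM in a library, and the absolute depth is unknown because no read counts were given. In 5 of the 12 libraries the features Lars2, Mir6236 and LOC101056014 took between 8.81% and 16.9% of all FPKM, against between 0.355% and 0.591% in the other 7. In the step with doxycycline both replicate 2 libraries were of the high kind and both replicate 1 libraries of the low kind, so a fold within a replicate number is also a fold within 1 kind of library. In the step without doxycycline replicate 2 of HP alone was of the high kind.

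The mouse genes behind the fusion were read first. Runx1 had 62.0 and 15.2 FPKM in PlusDox HP and 35.8 and 21.3 FPKM in PlusDox HE2, and the groups overlapped. Without doxycycline Runx1 had 67.4 and 56.0 FPKM in HP and 29.4 and 36.8 FPKM in HE2. In HP and in HE2 the Runx1 values of PlusDox and NoDox libraries thus overlapped. Mecom, which encodes EVI1, had 5.18 and 5.51 FPKM in PlusDox HP, against 18.4 and 20.2 FPKM in PlusDox HE2, and fell by 1.68 ± 0.32 (SE) on the log2(FPKM + 1) scale (limma, adjusted p = 0.00316). Without doxycycline Mecom had 0.194 and 0.205 FPKM in HP and 6.08 and 13.9 FPKM in HE2, a log2 fold change of −3.10 ± 0.32 (SE). The difference between the steps was 1.42 ± 0.45 and did not pass (limma, adjusted p = 0.503). The values do not separate the fusion transcript from the cells' own Runx1 and Mecom. Hprt, the locus beside which A2lox cells take up the inducible gene, had 82.4 and 49.5 FPKM in PlusDox HP and 38.5 and 36.4 FPKM in PlusDox HE2. The same gene had 7.04 and 4.72 FPKM in NoDox HP and 3.63 and 5.18 FPKM in NoDox HE2, so all 4 libraries labelled PlusDox lay above all 4 labelled NoDox.

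Promoters of 5 genes are shown because these genes mark the ends of the step: Pf4, Gp5 and Gp9 are platelet genes that were low in HE2, and Cldn5 and Gja5 are vessel junction genes that were near 0 in HP. Each line gives the 250 bases before the start used in the table of promoters, 5′ to 3′ on the gene's own strand, from RefSeq for GRCm38.p6, and capitals mark matches on either strand to AGATAA (the core bound by GATA factors), AGGAAG (ETS factors) or TGTGGT (RUNX factors). No matches overlap one another in these windows. The Gp9 window lies inside the annotated span of its gene (chromosome 6, 87776131 to 87779786), so it ends at a later start than the first annotated one.
Pf4, chr5:90772185-90772434, plus strand: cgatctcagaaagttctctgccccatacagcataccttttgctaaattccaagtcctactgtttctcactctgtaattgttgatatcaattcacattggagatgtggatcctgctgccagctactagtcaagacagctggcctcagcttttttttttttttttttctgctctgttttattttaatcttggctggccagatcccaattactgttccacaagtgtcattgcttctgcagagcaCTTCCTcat
Gp5, chr16:30310782-30311031, minus strand: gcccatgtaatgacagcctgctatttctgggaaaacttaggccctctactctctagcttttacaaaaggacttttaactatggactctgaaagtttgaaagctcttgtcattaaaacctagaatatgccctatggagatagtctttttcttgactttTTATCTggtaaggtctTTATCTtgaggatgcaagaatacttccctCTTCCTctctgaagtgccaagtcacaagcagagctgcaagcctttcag
Gp9, chr6:87777820-87778069, plus strand: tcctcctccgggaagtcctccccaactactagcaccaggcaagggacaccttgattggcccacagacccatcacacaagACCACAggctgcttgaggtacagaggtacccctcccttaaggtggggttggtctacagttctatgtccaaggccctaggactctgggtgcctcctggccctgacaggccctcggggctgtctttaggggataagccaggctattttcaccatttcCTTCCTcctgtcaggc
Cldn5, chr16:18776597-18776846, plus strand: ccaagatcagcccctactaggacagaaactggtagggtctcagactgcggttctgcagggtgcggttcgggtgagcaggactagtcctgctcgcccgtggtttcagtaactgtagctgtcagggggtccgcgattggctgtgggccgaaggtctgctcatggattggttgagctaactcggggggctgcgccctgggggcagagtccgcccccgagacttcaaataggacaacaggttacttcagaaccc
Gja5, chr3:97032152-97032401, plus strand: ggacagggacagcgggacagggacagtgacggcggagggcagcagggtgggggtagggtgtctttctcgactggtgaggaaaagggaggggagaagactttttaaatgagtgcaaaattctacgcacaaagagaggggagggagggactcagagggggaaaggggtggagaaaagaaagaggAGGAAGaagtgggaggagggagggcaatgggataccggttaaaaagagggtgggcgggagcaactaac
The Gp5 window held 2 GATA matches and 1 ETS match, the Gp9 window held 1 ETS match and 1 RUNX match, the Pf4 and Gja5 windows held 1 ETS match each, and the Cldn5 window held 0 of any. Among 782 promoters of 602 genes called higher in HP, 10.9% held the GATA letters, 30.4% the ETS letters and 14.5% the RUNX letters. Among 1412 promoters of 1056 genes called lower in HP the shares were 5.81%, 30.8% and 10.7%. They were 5.99%, 28.3% and 10.9% among the 12334 promoters counted for 9683 of the 13316 genes tested. Over the 32851 promoters of this length that were counted, the shares were 9.99%, 29.5% and 14.0%. These matches describe letters in a window and are not binding data.

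Across the HE2 to HP step with doxycycline most tested endothelial and arterial genes on the lists below fell. Most tested platelet, red cell and myeloid genes on those lists rose. Of 13316 genes tested, 794 were called higher in PlusDox HP (5.96% of genes tested) and 1457 lower (10.9%), at an adjusted p below 0.05 in limma over all 12 libraries. The calls included 65 genes at least 2 log2 units higher and 241 genes at least 2 log2 units lower. Of all calls 35.3% were higher in HP, and this share was 49.8% after quantile normalization, 47.6% after median scaling and 48.4% after the 3 features above were removed. Leaving out 1 library gave between 1307 calls (without PlusDox HP replicate 2) and 1742 calls.

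**Figure D1:**
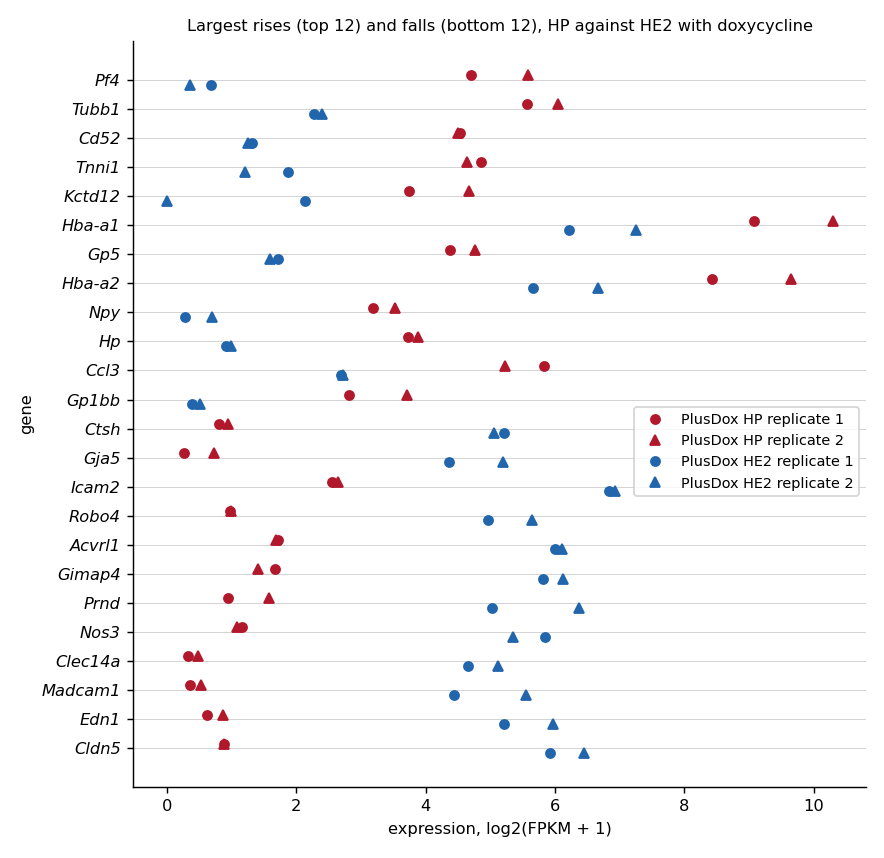
Expression of the 12 genes with the largest rises (top) and the 12 with the largest falls (bottom), predicted genes and small RNAs left out, as log2(FPKM + 1) on the horizontal axis, in each PlusDox HP library (red) and each PlusDox HE2 library (blue), with circles for replicate 1 and triangles for replicate 2. The 24 genes were picked among those whose groups do not overlap, so the separation follows from the choice, and Kctd12 had 3.40 and 0 FPKM in its HE2 libraries.

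Cldn5 had the largest fall. Cldn5, a tight junction protein of endothelium (chromosome 16, 18776847 to 18778262, mm10), had 0.848 and 0.847 FPKM in PlusDox HP, against 60.0 and 86.3 FPKM in PlusDox HE2. The groups were far apart, and the log2 fold change was −5.30 ± 0.44 (SE; limma, adjusted p = 1.74e-05), with −5.04 within replicate 1 and −5.56 within replicate 2. Edn1, the vasoconstrictor peptide endothelin 1, had 0.539 and 0.833 FPKM in HP and 36 and 61.8 FPKM in HE2. Nos3, the endothelial nitric oxide synthase, had 1.25 and 1.13 FPKM in HP and 56.7 and 39.9 FPKM in HE2. Both genes were thus high in each HE2 library and close to the 1 FPKM filter in each HP library. The others among the 12 largest falls were Madcam1 (an addressin that lymphocytes bind), Clec14a (an endothelial lectin), Prnd, Gimap4, Acvrl1 (the BMP9 receptor ALK1), Robo4 (an endothelial guidance receptor), Icam2 (an adhesion molecule), Gja5 (connexin 40) and Ctsh (the protease cathepsin H), with log2 fold changes from −4.55 to −4.26. Cldn5, Edn1, Madcam1, Clec14a, Robo4, Gja5 and Ctsh were under 1 FPKM in every HP library, with or without doxycycline. They passed the filter only through HE1 or HE2 and could hardly have been called higher, so their direction is no independent result. The same holds for Sox17, Dll4, Notch4, Hey2, Cxcr4, Bmp6, Aqp1, Mrc1 and Prom1 below.

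The endothelial identity list fell almost as a whole. Of its 33 tested members 30 were called lower in PlusDox HP and 0 higher, with a median log2 fold change of −2.76, beside a median of −0.01 over all genes tested. Cdh5, the VE-cadherin that holds endothelial cells together, had 53.2 and 36.4 FPKM in HP and 317 and 292 FPKM in HE2 (log2 fold change −2.76 ± 0.26, SE; limma, adjusted p = 3.84e-05). Its HP level was therefore well below HE2 but far from 0, unlike Cldn5. Pecam1, an adhesion molecule of endothelium and early blood, kept 90.8 and 77.1 FPKM in HP, against 268 and 279 FPKM in HE2. Kdr, the VEGF receptor FLK1 used to purify the starting cells, had 53.4 and 33.2 FPKM in HP and 145 and 136 FPKM in HE2. The members that did not pass were Cd34 (234 and 179 FPKM in HP, 287 and 373 FPKM in HE2), Vwf (9.96 and 12.6 FPKM in HP, 7.42 and 6.86 FPKM in HE2) and Tal1 (101 and 84.1 FPKM in HP, 68.4 and 52.2 FPKM in HE2), all of which blood progenitors or megakaryocytes also express. Tal1 was called higher after quantile normalization (limma, adjusted p = 0.0494) and with the 3 features removed (0.0266). The summed level of 10 endothelial markers was 420 and 312 FPKM in HP and 1812 and 1734 FPKM in HE2. These are bulk samples, so fewer cells of a type and less RNA per cell cannot be told apart.

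Among 22 endothelial transcription factors 15 were called lower in PlusDox HP and 1 higher, with a median log2 fold change of −1.03. The SOX factors of vessel identity fell, with Sox7 at 0.811 and 2.01 FPKM in HP and 29.4 and 30.9 FPKM in HE2, and Sox17 at 0.818 and 0.782 FPKM in HP and 8.66 and 18.2 FPKM in HE2. Sox18 fell by 3.18 ± 0.21 on the log2 scale but kept 10.0 and 7.41 FPKM in HP. Of the ETS factors, Ets1 had 16.7 and 16.5 FPKM in HP, against 61.0 and 81.0 FPKM in HE2, a log2 fold change of −2.02 ± 0.26 (SE; limma, adjusted p = 0.000262). Erg had 15.7 and 6.88 FPKM in HP and 26.3 and 28.2 FPKM in HE2 (adjusted p = 0.0191), while Fli1 had 55.4 and 62.2 FPKM in HP and 69.3 and 82.0 FPKM in HE2 and did not pass (limma, adjusted p = 0.263). Lmo2, a bridging protein shared by the endothelial and blood programmes, was the member called higher, with 134 and 98.0 FPKM in HP and 70.7 and 56.9 FPKM in HE2. The call of Erg was lost without PlusDox HP replicate 2 (limma, adjusted p = 0.172), PlusDox HE2 replicate 1 (0.0555) or PlusDox HE2 replicate 2 (0.0895), and that of Lmo2 without PlusDox HP replicate 1 (0.194) or PlusDox HE2 replicate 2 (0.195).

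Most genes on the Notch and arterial list fell in the same step. Notch receptors on one cell bind Delta and Jagged ligands on the next and switch on HES and HEY repressors, and high Notch signalling marks arterial endothelium. Of 26 tested members 20 were called lower and 0 higher, with a median log2 fold change of −2.43. Of the ligands, Dll4 had 0.222 and 0.355 FPKM in PlusDox HP and 9.23 and 7.34 FPKM in PlusDox HE2, and Jag2 had 4.91 and 3.45 FPKM in HP and 31.3 and 27.9 FPKM in HE2. Jag1 did not pass, with 14.6 and 10.6 FPKM in HP and 18.0 and 16.8 FPKM in HE2. Of the receptors, Notch1 (log2 fold change −2.41 ± 0.24, SE) and Notch4 (−3.14 ± 0.35) were called lower, and Notch2 had 10.2 and 7.68 FPKM in HP and 8.26 and 5.61 FPKM in HE2 (limma, adjusted p = 0.458). The target repressors Hey1 and Hey2 had at most 1.96 FPKM in any HP library, against at least 16.9 FPKM for Hey1 and 5.55 FPKM for Hey2 in the HE2 libraries. Hes1, another target, had 11.6 and 8.63 FPKM in HP and 23.5 and 15.2 FPKM in HE2 and did not pass (adjusted p = 0.0602). It was called lower after quantile normalization (0.0194), after median scaling (0.0224), with the 3 features removed (0.0212), with a term for the kind of library (0.00233) and without PlusDox HE2 replicate 2 (limma, adjusted p = 0.0455). Gja5, a gap junction gene of arteries, had 0.199 and 0.662 FPKM in HP and 19.5 and 35.5 FPKM in HE2, a log2 fold change of −4.28 ± 0.69 (limma, adjusted p = 0.0011). Cxcr4, the receptor for the chemokine CXCL12, had 0.435 and 0.454 FPKM in HP and 8.69 and 10.7 FPKM in HE2, so that both HE2 libraries were well above both HP libraries.

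Most genes on the matrix and adhesion list fell too. Of 34 matrix and adhesion genes 22 were called lower in PlusDox HP and 1 higher, with a median log2 fold change of −1.46. Col4a1, a chain of basement membrane collagen, had 29.5 and 26.1 FPKM in HP and 271 and 308 FPKM in HE2, and Fbn1, the microfibril protein fibrillin 1, had 2.51 and 1.78 FPKM in HP and 49.1 and 29.4 FPKM in HE2. Fn1, which encodes fibronectin, was still among the abundant transcripts of HP, with 222 and 135 FPKM, against 759 and 438 FPKM in HE2; its call was lost without PlusDox HP replicate 2 (limma, adjusted p = 0.0909) or PlusDox HE2 replicate 1 (0.0726). The member called higher was Thbs1, a matrix protein that platelets also store, with 112 and 129 FPKM in HP and 27.6 and 33.1 FPKM in HE2 (log2 fold change 1.95 ± 0.38, SE; limma, adjusted p = 0.00389). Among 26 genes for chemokine and vascular growth factor signals 19 were called lower and 1 higher, with a median of −2.18. Angpt1, the agonist ligand of TEK, was the member called higher (14.1 and 16.1 FPKM in HP, 3.34 and 4.08 FPKM in HE2), while Angpt2 had 1.36 and 1.19 FPKM in HP and 0.996 and 1.16 FPKM in HE2. Their receptor Tek fell to 16.9 and 10.6 FPKM in HP, against 84.7 and 80.8 FPKM in HE2. Vegfa, the ligand of KDR, had 2.92 and 2.01 FPKM in HP and 27.8 and 18.7 FPKM in HE2.

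BMP and TGF-beta ligands signal through paired receptors and SMAD proteins, and BMP signalling switches on the ID repressors. Of 29 tested members of these pathways 18 were called lower in PlusDox HP and 1 higher, with a median log2 fold change of −0.91. Of the ligands, Bmp4 (18.2 and 15.9 FPKM in HP, 60.5 and 45.5 FPKM in HE2) and Bmp6 (0.269 and 0.328 FPKM in HP, 6.35 and 7.35 FPKM in HE2) fell. Tgfb1 rose, with 74.2 and 50.4 FPKM in HP and 32.4 and 16.9 FPKM in HE2 (log2 fold change 1.35 ± 0.31, SE; limma, adjusted p = 0.0102). Its call was lost without PlusDox HP replicate 1 (limma, adjusted p = 0.0867) or PlusDox HE2 replicate 2 (0.105). Of the receptors, Acvrl1 had 2.28 and 2.22 FPKM in HP and 63.4 and 67.7 FPKM in HE2. The target Id3 had 13.5 and 12.2 FPKM in HP and 151 and 153 FPKM in HE2 (log2 fold change −3.47 ± 0.21). Id1 and Id2 were lower in HP by 1.36 ± 0.18 and 1.15 ± 0.20 on the log2 scale (SE; limma, adjusted p = 0.000327 and 0.00212).

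**Figure D2:**
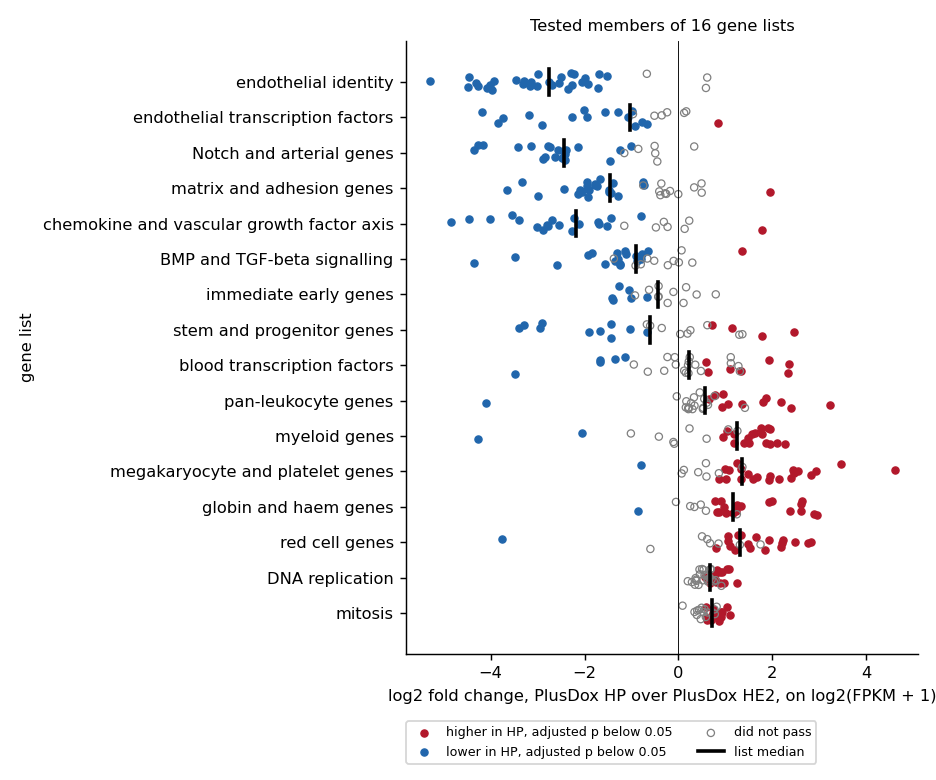
Log2 fold change of PlusDox HP over PlusDox HE2 on log2(FPKM + 1), horizontal axis, for every tested member of 16 gene lists. Red points were called higher, blue points were called lower, open points did not pass, and black bars are list medians, which run from −2.76 (endothelial identity) to 1.36 (megakaryocyte and platelet genes).

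Among the genes named, the platelet genes Pf4 and Tubb1 had the largest rises. The 12 largest rises also held Tnni1 (log2 fold change 3.20 ± 0.30, SE), Kctd12 (3.14 ± 0.59), Npy (2.87 ± 0.26) and Hp (2.85 ± 0.26). Pf4, a chemokine stored in platelet granules (chromosome 5, 90772435 to 90773383, mm10), had 25.0 and 46.9 FPKM in PlusDox HP, against 0.600 and 0.289 FPKM in PlusDox HE2. The groups did not overlap, and the log2 fold change was 4.62 ± 0.33 (SE; limma, adjusted p = 6.64e-06), with 4.02 within replicate 1 and 5.21 within replicate 2. Tubb1, the beta tubulin of the platelet ring, had 46.7 and 65.2 FPKM in HP and 3.82 and 4.29 FPKM in HE2 (log2 fold change 3.47 ± 0.22). Of 29 tested megakaryocyte and platelet genes 21 were called higher in HP and 1 lower, with a median of 1.36. The subunits of the platelet receptor for von Willebrand factor rose, with Gp1bb at 6.05 and 12.2 FPKM in HP and 0.308 and 0.430 FPKM in HE2, Gp9 at 8.76 and 8.58 FPKM in HP and 0.825 and 0.495 FPKM in HE2, and Gp5 at 19.8 and 26.2 FPKM in HP and 2.28 and 2.01 FPKM in HE2. Gp6, the platelet collagen receptor, had 0.801 and 1.49 FPKM in HP, and Treml1, a granule receptor, had 3.39 and 5.71 FPKM in HP, and each was listed at 0 in both HE2 libraries. In each of these genes both HP libraries were above both HE2 libraries. Pf4, Gp1bb, Gp9, Gp6 and Treml1 reached 1 FPKM in HP libraries alone. They passed the filter only through HP and could hardly have been called lower, so their direction is no independent result. The integrin chain Itgb3 rose (332 and 264 FPKM in HP, 136 and 101 FPKM in HE2), while its partner Itga2b, known on cells as CD41, had 235 and 160 FPKM in HP and 112 and 49.7 FPKM in HE2 and did not pass (limma, adjusted p = 0.059). Itga2b was called higher after quantile normalization (limma, adjusted p = 0.0438), after median scaling (0.0382), with the 3 features removed (0.032), with a term for the kind of library (0.0474), in a fit of the compared groups alone (0.023) and without PlusDox HE2 replicate 1 (0.0194). F2r, which encodes a thrombin receptor, was the list member called lower, with 249 and 228 FPKM in HP and 431 and 398 FPKM in HE2. Its call was lost without PlusDox HP replicate 2 (limma, adjusted p = 0.0691) or PlusDox HE2 replicate 1 (0.0645), and the call of Gp6 without PlusDox HP replicate 2 (0.186), PlusDox HE2 replicate 1 (0.0895) or PlusDox HE2 replicate 2 (0.113).

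Most genes on the globin and red cell lists rose too. Of 25 globin and haem genes 18 were called higher in PlusDox HP and 1 lower (median log2 fold change 1.16), and of 26 red cell genes 18 were called higher and 1 lower (median 1.32). The embryonic globin Hbb-bh1 was the most abundant of the erythroid markers, with 4388 and 6023 FPKM in HP and 739 and 967 FPKM in HE2, a log2 fold change of 2.60 ± 0.28 (SE; limma, adjusted p = 8.85e-05). Its embryonic partner Hba-x had 1618 and 3177 FPKM in HP and 252 and 545 FPKM in HE2. Hbb-y, the other embryonic beta globin, had 856 and 1955 FPKM in HP and 471 and 631 FPKM in HE2 and did not pass (limma, adjusted p = 0.074), but it was called higher without PlusDox HP replicate 1 (0.0234). Hba-a1 and Hba-a2, and likewise Hbb-bs and Hbb-bt, are near-identical copies whose reads may be split between them, so their own levels are uncertain. Hba-a1 was listed at 538 and 1260 FPKM in HP and 73.1 and 151 FPKM in HE2. Of the haem enzymes, Alas2, which starts haem synthesis in red cells, had 11.0 and 16.7 FPKM in HP and 2.32 and 3.04 FPKM in HE2. Alas1, its counterpart in other cells, was the member called lower, with 13.3 and 13.5 FPKM in HP and 24.4 and 26.3 FPKM in HE2, and its call was lost without PlusDox HP replicate 1 (limma, adjusted p = 0.0532), PlusDox HP replicate 2 (0.0565) or PlusDox HE2 replicate 2 (0.0736). In the membrane skeleton, Sptb had 15.1 and 20.1 FPKM in HP and 1.42 and 1.84 FPKM in HE2. Aqp1, a water channel of red cells and endothelium, went the other way, with 0.963 and 0.315 FPKM in HP and 27.1 and 16 FPKM in HE2. Replicate 2 was the higher library of both groups for each globin named here, and it was also the one with the larger share of Lars2, Mir6236 and LOC101056014, whose part in this was not tested.

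Transcription factors that drive red cells and platelets were among those higher in HP. Of 30 blood transcription factors 7 were called higher in PlusDox HP and 5 lower, with a median log2 fold change of 0.22, and the count higher was 4 on leaving out either PlusDox HP library or PlusDox HE2 replicate 2. Over all genes tested 5.96% were called higher and 10.9% lower, and the counts for blood transcription factors are not read as a result about the list. Gata1, required for red cells and megakaryocytes, had 53.9 and 56.9 FPKM in HP and 14.5 and 7.08 FPKM in HE2 (log2 fold change 2.34 ± 0.46, SE; limma, adjusted p = 0.00388). Klf1, which drives adult globin genes, had 22.7 and 29.3 FPKM in HP and 4.00 and 4.49 FPKM in HE2, and Gfi1b, a repressor of endothelial genes, had 65.3 and 47.7 FPKM in HP and 21.9 and 8.75 FPKM in HE2. With a pseudocount of 0.1 neither Gata1 nor Gfi1b passed (limma, adjusted p = 0.0694 and 0.219), and Gfi1b was also lost without PlusDox HP replicate 1 (0.122), PlusDox HP replicate 2 (0.0604) or PlusDox HE2 replicate 2 (0.195). Spi1, which encodes the myeloid factor PU.1, had 91.0 and 72.5 FPKM in HP and 71.9 and 55.4 FPKM in HE2 and did not pass (adjusted p = 0.444). Gata2, a stem and progenitor factor, had 14.4 and 17.7 FPKM in HP and 24.5 and 16.2 FPKM in HE2, and these groups overlapped. The members called lower were Id1, Id2, Id3, Gata3 and Mecom.

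Most tested genes on the myeloid list rose as well. Of its 38 members 27 were tested, and the others did not pass the filter. Of the 27 tested 17 were called higher in PlusDox HP and 2 lower, with a median log2 fold change of 1.26. Mpo, the peroxidase of neutrophil granules, had 15.1 and 11.3 FPKM in HP and 3.04 and 1.64 FPKM in HE2 (log2 fold change 2.11 ± 0.27, SE; limma, adjusted p = 0.000255). Ncf1, a subunit of the phagocyte oxidase, had 19.0 and 18.0 FPKM in HP and 3.47 and 2.68 FPKM in HE2, and the integrin chain Itgam had 7.18 and 7.31 FPKM in HP and 1.11 and 1.13 FPKM in HE2. Csf3r, the receptor for G-CSF, had 6.88 and 4.97 FPKM in HP and 2.05 and 1.21 FPKM in HE2. The members called lower were Ctsh and Mrc1, a mannose receptor of macrophages and some endothelium. The chemokine Ccl3 was among the 12 largest rises, with 55.9 and 36.6 FPKM in HP and 5.47 and 5.63 FPKM in HE2.

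Of 30 tested genes shared by most leukocytes 11 were called higher in PlusDox HP and 1 lower, with a median log2 fold change of 0.58, and 7 were called higher without PlusDox HP replicate 1 or without PlusDox HE2 replicate 2. Cd52, a small surface glycoprotein, rose most, with 22.2 and 21.7 FPKM in HP and 1.5 and 1.39 FPKM in HE2. Plek, a kinase substrate of platelets and leukocytes, had 183 and 178 FPKM in HP and 32.7 and 34.6 FPKM in HE2. Ptprc, which encodes the pan-leukocyte protein CD45, had 12.2 and 13.1 FPKM in HP and 8.43 and 14.8 FPKM in HE2, and the groups overlapped (log2 fold change 0.16 ± 0.27, SE; limma, adjusted p = 0.769). Coro1a, an actin regulator of leukocytes, had 62.3 and 59.1 FPKM in HP and 55.1 and 45.7 FPKM in HE2 (log2 fold change 0.27 ± 0.32; adjusted p = 0.647). Cd93, a lectin-like receptor present on endothelium too, was the member called lower, with 4.70 and 2.95 FPKM in HP and 63.7 and 101 FPKM in HE2.

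Stem and progenitor genes gave a mixed account. Of 23 tested members 4 were called higher in PlusDox HP and 10 lower, with a median log2 fold change of −0.60. Those lower included members that endothelium also uses: Procr, the protein C receptor, had 12.4 and 11.4 FPKM in HP and 143 and 128 FPKM in HE2, and Prom1, which encodes CD133, had 0.228 and 0.253 FPKM in HP and 7.12 and 10.4 FPKM in HE2. The members higher included Angpt1, Slamf1 (3.17 and 2.58 FPKM in HP, 1.05 and 0.490 FPKM in HE2) and Gpr183 (0.789 and 1.37 FPKM in HP, 0.251 and 0.255 FPKM in HE2), the last of which was lost without PlusDox HP replicate 2 (limma, adjusted p = 0.199), PlusDox HE2 replicate 1 (0.0978) or PlusDox HE2 replicate 2 (0.12). Kit, the stem cell factor receptor, had 53.9 and 30.9 FPKM in HP and 47.8 and 33.0 FPKM in HE2, and its groups overlapped.

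Cell cycle genes rose in part, by small amounts. Of 40 DNA replication genes 16 were called higher in PlusDox HP and 0 lower (median log2 fold change 0.68), and of 32 mitosis genes 18 were called higher and 0 lower (median 0.71), with every tested member of both lists above 0 in the fit to all libraries. Rrm2, the ribonucleotide reductase subunit that supplies DNA building blocks, had 71.4 and 64.2 FPKM in HP and 33.7 and 23.1 FPKM in HE2 (log2 fold change 1.25 ± 0.23, SE; limma, adjusted p = 0.00301). Mki67, a protein of dividing cells, had 123 and 97.6 FPKM in HP and 57.7 and 48.1 FPKM in HE2, and the mitotic kinase gene Aurka had 38.9 and 40.1 FPKM in HP and 20.0 and 15.9 FPKM in HE2. These counts depended on single libraries: replication calls numbered 2 or 10 when HP replicate 1 or replicate 2 of PlusDox was left out and 1 without PlusDox HE2 replicate 2, and mitosis calls between 6 and 10 on leaving out any 1 of the 4 libraries. After quantile normalization there were 32 replication calls and 30 mitosis calls. Of 13 CDK inhibitors and D cyclins 2 were called higher and 2 lower. The inhibitor Cdkn1c fell (5.86 and 6.45 FPKM in HP, 24.9 and 18.9 FPKM in HE2). The D cyclin gene Ccnd1 fell too (7.87 and 11.8 FPKM in HP, 24.2 and 24.1 FPKM in HE2). Of 25 ribosome biogenesis genes and Myc genes 1 was called higher, Myc itself, with 23.1 and 16.2 FPKM in HP and 11.3 and 9.53 FPKM in HE2. Over all genes tested 5.96% were called higher and 10.9% lower. The small counts for CDK, cyclin and ribosome genes are not read as results about these lists. Without PlusDox HP replicate 1 or without PlusDox HE2 replicate 2 the calls of Mki67 (limma, adjusted p = 0.07 and 0.0723), Myc (0.164 and 0.138) and Ccnd1 (0.122 and 0.0695) were lost, and that of Ccnd1 also without PlusDox HE2 replicate 1 (0.0586).

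On the lists for stress and inflammation, immediate early genes and p53 targets were called lower more often than higher, where 10.9% of all genes tested were called lower. Of 17 immediate early genes 6 were called lower in PlusDox HP and 0 higher, among them Atf3 (14.2 and 10.5 FPKM in HP, 39.6 and 29.3 FPKM in HE2). Of 19 p53 targets 5 were called lower and 1, Perp, higher. With PlusDox HP replicate 1 left out, 3 immediate early genes and 2 p53 targets were called lower. With HP replicate 2 left out these counts were 2 and 1, with HE2 replicate 1 left out 2 and 3, and with HE2 replicate 2 left out 4 and 1. Of 30 interferon and inflammation genes 3 were called higher (Ccl3, Ccl4 and Tnf) and 3 lower (Nfkbia, Tlr4 and Nfkb1). With 5.96% of all genes tested called higher, these small counts are not read as a result about the list. Among the named genes of this paragraph, Atf3 was lost without PlusDox HP replicate 2 (limma, adjusted p = 0.0728) or PlusDox HE2 replicate 1 (0.057), Tnf without the same libraries (0.0922 and 0.0756), and Tlr4 without PlusDox HP replicate 1 (0.197), PlusDox HP replicate 2 (0.0596) or PlusDox HE2 replicate 2 (0.306).

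Markers of other cell types were read in both groups. The summed level of 8 smooth muscle and mesenchyme markers was 29.1 and 81.8 FPKM in PlusDox HP and 48.2 and 93.9 FPKM in PlusDox HE2, higher in replicate 2 of each, with Dcn at 0 in all 4 libraries and Acta2 the highest. In HE2 these sums were of the size of the myeloid marker sums (60.5 and 52.6 FPKM), and their part in the results on matrix genes was not tested. The 5 lymphoid markers summed to 1.52 and 0.518 FPKM in HP and 4.83 and 4.94 FPKM in HE2, most of it Ebf1 in HE2. Mast cell, cardiac, pluripotent or feeder and liver markers each summed to at most 6.71 FPKM in any of the 4 libraries. Blood markers summed to 509 and 448 FPKM in HP and 305 and 234 FPKM in HE2, erythroid markers to 6948 and 11266 FPKM in HP and 1488 and 2167 FPKM in HE2, and megakaryocyte markers to 632 and 511 FPKM in HP and 253 and 155 FPKM in HE2. The labelled HE2 thus held transcripts of both endothelium and blood, and the labelled HP kept part of the endothelial sum. Whether this lies within single cells or in a mixture was not tested.

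The same step without doxycycline shares no library with the step described, so the pair can be compared. It had 707 genes called higher in NoDox HP (5.31%) and 1418 lower (10.6%), and 1328 higher with 1447 lower after quantile normalization or 1394 higher with 1521 lower after median scaling. Of the genes called higher with doxycycline 54.5% were also called higher without it, a number that is 61.2% of the genes called higher without doxycycline (433 genes). Of those called lower 68.1% with and 70.0% without doxycycline were shared (992 genes). A test of the difference between the steps called 2 genes, 1 higher (0.00751% of genes tested) and 1 lower (0.00751%), and 875 genes had an unadjusted p below 0.05. Of the 825 genes called with doxycycline and not without it, 244 had an unadjusted p of the difference below 0.05. A call in one step alone therefore did not show that the steps differed.

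**Figure D3:**
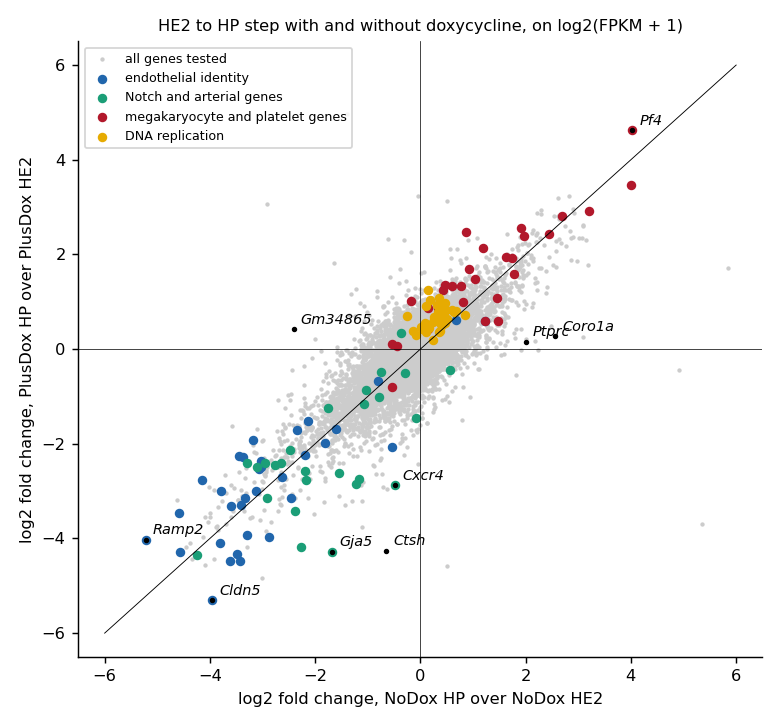
Log2 fold change of HP over HE2 with doxycycline (vertical axis) against the same without doxycycline (horizontal axis), both on log2(FPKM + 1), for all 13316 genes tested (grey) and 4 gene lists (colours). The line marks equal folds. Ctsh lies at −4.26 with and −0.66 without doxycycline, and Coro1a at 0.27 with and 2.55 without.

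Ctsh was the named gene whose fall differed between the steps. It had 0.745 and 0.921 FPKM in PlusDox HP and 36.2 and 32.2 FPKM in PlusDox HE2, against 0 and 0.133 FPKM in NoDox HP and 0.252 and 1.25 FPKM in NoDox HE2. The groups of the step with doxycycline were far apart, and those of the step without it were all near or under 1 FPKM. The step with doxycycline minus the step without was −3.60 ± 0.44 on the log2 scale (SE; limma, adjusted p = 0.0231). The Ctsh level in PlusDox HE1 was higher still, at 84.3 and 44.3 FPKM, against 8.72 and 10.3 FPKM in NoDox HE1. Over the alternatives the difference ran from −4.03 to −3.03 and its adjusted p from 0.00871 to 0.648. The call was lost with a pseudocount of 0.1, with no filter, when the 3 features were removed, with a term for the kind of library, and without PlusDox HP replicate 1 or 2, PlusDox HE2 replicate 2, NoDox HP replicate 1 or 2 or NoDox HE2 replicate 1. Gm34865, a predicted gene named after its values were seen, was the other call. It had 6.22 and 3.96 FPKM in PlusDox HP and 3.40 and 3.51 FPKM in PlusDox HE2, and it was listed at 0 in both NoDox HP libraries with 3.41 and 5.40 FPKM in NoDox HE2.

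Several list members had unlike folds in the steps with no call of the difference. Coro1a changed by 0.27 with and 2.55 without doxycycline on the log2 scale, and its level in PlusDox HE2 (55.1 and 45.7 FPKM) was near that of HP, while NoDox HP had 27.9 and 42.0 FPKM and NoDox HE2 had 3.70 and 6.72 FPKM (difference −2.28 ± 0.45, SE; limma, adjusted p = 0.28). Ptprc was similar, with 5.16 and 7.98 FPKM in NoDox HP and 0.590 and 1.17 FPKM in NoDox HE2 (difference −1.84 ± 0.38; adjusted p = 0.296). For both leukocyte genes the PlusDox HE2 libraries were at or near the HP level and the NoDox HE2 libraries were far below it.

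Genes with the opposite order were low in PlusDox HE2 and higher in NoDox HE2. Mpo had 25.0 and 26.3 FPKM in NoDox HP and 16.9 and 14.1 FPKM in NoDox HE2, a difference between steps of 1.42 ± 0.38 (SE; limma, adjusted p = 0.414). Csf3r had 5.44 and 3.13 FPKM in NoDox HP and 5.38 and 6.24 FPKM in NoDox HE2 (difference 1.80 ± 0.36; adjusted p = 0.284). Rrm2 had 96.7 and 81.8 FPKM in NoDox HP and 87.1 and 74.6 FPKM in NoDox HE2 (difference 1.11 ± 0.33; adjusted p = 0.456). All 3 genes had both PlusDox HE2 libraries below both NoDox HE2 libraries.

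The arterial genes Gja5 and Cxcr4 had both PlusDox HE2 libraries above both NoDox HE2 libraries. Gja5 was listed at 0 in both NoDox HP libraries and had 0.610 and 5.40 FPKM in NoDox HE2 (difference between steps −2.59 ± 0.97, SE; limma, adjusted p = 0.626). Cxcr4 had 0.0644 and 0.285 FPKM in NoDox HP and 0.102 and 1.42 FPKM in NoDox HE2 (difference −2.40 ± 0.53; adjusted p = 0.313). Over the Notch and arterial list the median log2 fold change was −2.43 with and −1.72 without doxycycline, and 20 and 17 members were called lower. Gene by gene, the difference between steps had a median of −0.22, with 16 members negative and 10 positive. Gja5 had the most negative difference of that list. For endothelial identity the medians were −2.76 with and −3.19 without doxycycline, and 30 and 29 members were called lower. There the gene-by-gene difference had a median of 0.13, with 18 members positive and 15 negative. Cdh5 had the most positive difference (1.39), with 53.2 and 36.4 FPKM left in PlusDox HP and a log2 fold change of −4.16 without doxycycline. Cldn5 went the other way (−1.34). None of the members of these lists passed the test of the difference between steps. Replication genes were called higher in 16 cases with and 3 without doxycycline (medians 0.68 and 0.36), mitosis genes in 18 and 4 (medians 0.71 and 0.33), and megakaryocyte genes in 21 and 16 (medians 1.36 and 1.04), again with 0 members passing the test of the difference.

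**Figure D4:**
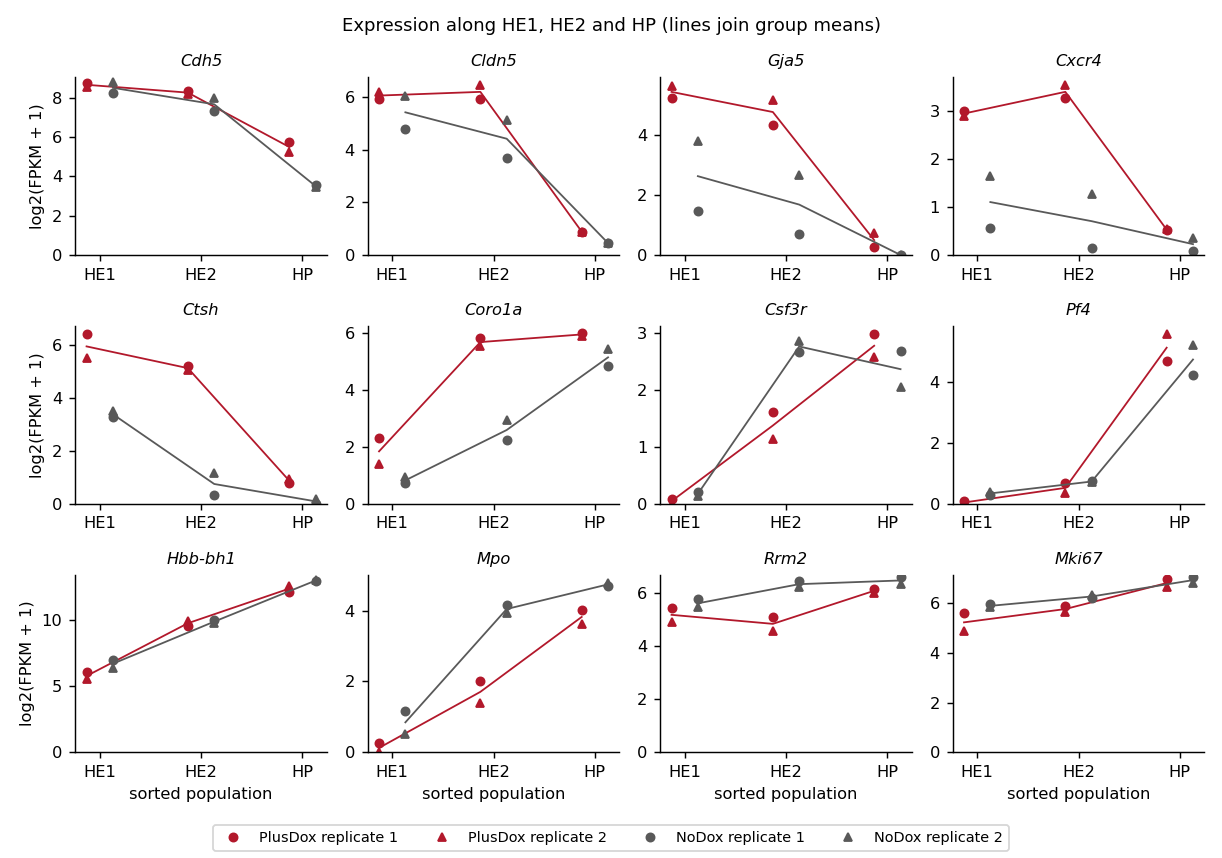
Levels of 12 genes as log2(FPKM + 1) along the sorted populations HE1, HE2 and HP in PlusDox (red) and NoDox (grey) libraries, with circles for replicate 1, triangles for replicate 2 and lines through group means. Pf4 stays under 1 FPKM until HP in both conditions, Coro1a is already at 55.1 and 45.7 FPKM in PlusDox HE2, and Ctsh is high in PlusDox HE1 and HE2.

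Along the whole path, the changes of the last step had different starts. Pf4 was at 0.0569 and 0 FPKM in PlusDox HE1, under 1 FPKM in PlusDox HE2 and at 25.0 and 46.9 FPKM in PlusDox HP, so its level appeared in the last step. Endothelial markers summed to 2149 and 1849 FPKM in HE1, 1812 and 1734 FPKM in HE2 and 420 and 312 FPKM in HP with doxycycline. Myeloid markers summed to 1.34 and 0.142 FPKM in HE1, 60.5 and 52.6 FPKM in HE2 and 143 and 148 FPKM in HP. Erythroid markers summed to 143 and 113 FPKM in HE1, 1488 and 2167 FPKM in HE2 and 6948 and 11266 FPKM in HP. The endothelial sum thus dropped between HE2 and HP and the blood sums grew at both steps. The values of HE2 are the same libraries in both steps.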

How the data were processed

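Per the labels' protocols, 12 stranded total RNA libraries were pooled and sequenced paired-end (NextSeq 500). Trimmomatic 0.32, HISAT2 2.1.0, StringTie 1.3.3 and the build mm10 are named in the submitters' processing notes. Neither the annotation nor the strand setting of the counting is stated there, so overlapping and antisense genes cannot be told apart.

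In the deposited files each gene name had 1 value, under no header. These were taken to be FPKM made by the authors, inferred from the tool and from sums that differ between libraries. Of 35976 names, 32501 were in a RefSeq table for mm10. Repeated names were added, and genes with at least 1 FPKM in at least 2 libraries were tested (13316 genes). Genes that reached 1 FPKM in HP libraries alone, such as Pf4, Gp6, Gpr183 and Tnf, passed only through HP. Others, such as Cldn5, Gja5 and Dll4, passed only through HE1 or HE2. The filter thus left such genes little room to be called the other way. Log2(FPKM + 1) of all 12 libraries was fitted with limma 3.58.1 (R 4.3.3), using 6 group means and a trended prior (residual degrees of freedom 6, prior 5.83). This pseudocount of 1 makes folds of low genes smaller. P-values were two-sided and Benjamini-Hochberg adjusted over all genes tested, and calls were made at an adjusted p below 0.05. The fit was tested on simulated data. Errors of fold changes are limma's standard errors, and no counting interval could be given without counts.

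The members and the 25 gene lists were chosen with earlier results of these data known, so no list is independent evidence of its direction, and lists are described by counts and medians. Named genes were the 12 largest rises and falls (mean of at least 5 FPKM in one group, libraries of the groups not overlapping), up to 4 called members of a list in each direction, members that did not pass, and the genes of the construct. Predicted genes and small RNAs were counted and not named. Called members beyond these were named after their values were seen. Alternatives were another pseudocount, no filter, 3 other scalings, a replicate or library term, no trend, only the groups compared, and leaving out each library. Results of some list members are not reported here.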

Additional observations from a re-analysis of the deposited data

Results flagged for a closer look

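The fall of Ctsh from HE2 to HP differed between the steps with and without doxycycline, by a test of the difference itself. The step with doxycycline minus the step without was −3.60 on the log2 scale (limma, adjusted p = 0.0231), and both PlusDox HE2 libraries (36.2 and 32.2 FPKM) lay far above both NoDox HE2 libraries (0.252 and 1.25 FPKM). Ctsh alone lost its call with a pseudocount of 0.1 and without PlusDox HP replicate 2 or NoDox HE2 replicate 1. The predicted gene Gm34865 differed by 2.84 (limma, adjusted p = 0.0231), and it was listed at 0 in both NoDox HP libraries. With 13316 genes tested these 2 were the calls, and neither was called when Lars2, Mir6236 and LOC101056014 were removed, with a term for the kind of library, with no filter, or without either NoDox HP library, HP replicate 1 of PlusDox or HE2 replicate 2 of PlusDox. Gm34865 was also lost in a fit of the compared groups alone and without NoDox HE2 replicate 2, and its adjusted p in limma ran from 0.000492 to 0.18 over the alternatives.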

How the results depend on the processing

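Beside the 2251 genes called in the step with doxycycline, quantile normalization gave 3394, and leaving out 1 library gave between 1307 and 1742. With the replicate number as a block there were 3388 calls. With only 2 replicate numbers the data cannot show that the numbers pair the libraries, though replicate differences of PlusDox HP and PlusDox HE2 correlated across genes at 0.526 (−0.1 to 0.526 over all pairs of groups, where genes are not independent replicates). The step without doxycycline gave 2125 calls, 1184 to 1720 on leaving out 1 library and 3075 with the replicate block. For the difference between the steps the 2 calls became 1 with a pseudocount of 0.1, 0 without Lars2, Mir6236 and LOC101056014, 5 with the replicate block, 0 with the library term and between 0 and 5 on leaving out 1 library. The 290 list genes called became between 207 and 365. Other alternatives moved these counts over all genes by at most 1.5 times. For the difference between the steps the genes called still changed. Of the 3 calls with no filter 0 were among the 2 of the report, and of the 2 calls in a fit of the compared groups alone 1 was. Of the single lists, blood transcription factors called higher numbered 3 with a pseudocount of 0.1 and 11 with the replicate block, beside 7. Replication calls, 16 in the report, numbered 30 after median scaling, 33 without the 3 features, 31 with the replicate block, 28 with the library term and 9 in a fit of the compared groups alone. Mitosis calls, 18 in the report, numbered 30 after median scaling, 28 without the 3 features and 8 in a fit of the compared groups alone. The p53 targets called lower numbered 2 with no filter and 3 in a fit of the compared groups alone, beside 5. The cause of these shifts was not tested.

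Of 141 genes called in the step and picked by the naming rule or for the text, 106 kept their call under all 13 alternatives. Of members that did not pass, Hes1 (adjusted p = 0.0197), Itga2b (0.000321), Hbb-y (0.00207), Tal1 (0.0123) and Vwf (0.0339) were called in limma with the replicate block, and those other than Vwf also under alternatives given in the report. Among other genes that did not pass, the log2 fold change crossed 0 on leaving out 1 library, running from −0.35 to 0.43 for Kit, −0.22 to 0.53 for Ptprc, −0.82 to 1.14 for Runx1, −4.95 to 4.05 for Lars2, −3.51 to 3.85 for Mir6236 (−0.18 after quantile normalization) and −1.98 to 2.43 for LOC101056014.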
